A study of Rattus norvegicus with 49 samples.

Results

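Young adult rats of 9 months were compared with young rats of 3 months in the CA1 field of the hippocampus. The comparison held 18 of the 49 arrays of an age series: 9 arrays from animals of 9 months and 9 arrays from animals of 3 months. All animals were Fisher 344 rats, an inbred strain much used in ageing work, and carried no treatment or engineered allele in the labels; their sex is not given in the sources used here. Both ages had been trained in the Morris water maze, a test of spatial memory, shortly before the left hippocampus was removed and its CA1 region cut out. RNA of each animal was read on its own Affymetrix RAE 230A array, whose values are MAS5 signals, a linear brightness per probe set. A probe set was followed where it had a single gene symbol and a signal of at least 100 on 5 or more of the 49 arrays, which held for 9541 of 15923 probe sets and for 8094 genes.

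CA1 is the field of pyramidal neurons through which the hippocampus sends most of its output to the cortex, and long-term potentiation of its synapses is the best studied cellular model of memory. A dissected piece of CA1 also holds astrocytes, myelinating oligodendrocytes, vessels and microglia, the resident immune cells of the brain, which clear debris through Fc receptors, complement and the lysosome. The interval between both ages is one in which rats pass from the end of growth into full adulthood.

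The arrays of both ages were alike in general level. Array medians ran from 208.3 to 221, and a signal of 100 was reached by 10186 to 10593 probe sets per array. The number of arrays limits the precision. CA1 markers were well detected: Wfs1, a protein of the endoplasmic reticulum that marks CA1 pyramidal cells, averaged 5131 at 9 months and 5656 at 3 months. The log2 ratio of 3′ to 5′ control probes, a sign of RNA degradation, averaged 0.257 at 9 months and 0.26 at 3 months for GAPDH, 0.817 and 0.815 for beta-actin, and 0.787 and 0.803 for hexokinase. None of these 3 differences passed a two-sided exact permutation test of 9 against 9 arrays (adjusted p = 0.974 for each of the 3).

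A set of 4 arrays of the younger group stood apart. Transthyretin (Ttr), the thyroxine carrier made in bulk by the choroid plexus, had signals of 3908, 5108, 8932 and 12003 on 3-month replicates 7, 6, 4 and 8. The 9-month arrays ranged from 87.3 to 395, and the other 5 arrays of 3 months from 116 to 437. The summed signal of 16 choroid plexus genes lay between 5026 and 5559 at 9 months and between 4955 and 21323 at 3 months. Prox1, the transcription factor that marks dentate granule cells, was spread widely in both groups, from 341.5 to 970 at 9 months and from 274 to 1073 at 3 months. One array of 23 months also had a high Ttr signal, and values without these 5 arrays are given beside the results they touch.

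**Figure D1:**
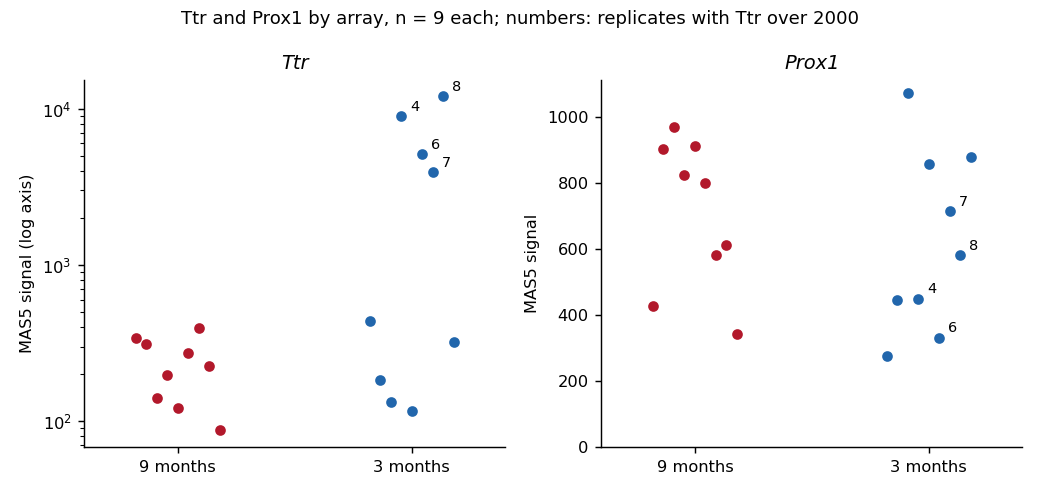
MAS5 signal of Ttr (left, log axis) and Prox1 (right, linear axis) on each array of 9 months (red) and 3 months (blue), n = 9 each. The 4 numbered arrays of 3 months have Ttr signals from 3908 to 12003, while every array of 9 months is at or below 395; Prox1 overlaps fully between the ages.

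Few transcripts separated the ages. Under limma with Benjamini-Hochberg adjustment over all 9541 probe sets, 5 differed at an adjusted p under 0.05 (0.0524% of those tested). Of these, 4 were higher at 9 months: Nat8f3, Npc2, Mgst1 and Fcgr2b, by 1.21 to 1.58 times. One probe set of Homer1 was lower. At an unadjusted p under 0.05 there were 291 probe sets (3.05%), 155 of them higher and 136 lower at 9 months, where a chance level of 5% would give 477. The only probe set that differed by more than 2-fold was Ttr, which was lower at 9 months and did not pass.

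Most genes were measured closely enough to bound a difference. The 95% interval of the log2 difference lay within 1 either way for 9468 probe sets (99.2%) and within 0.5 for 8786 (92.1%). The median size of a log2 difference was 0.0493, and its median standard error was 0.0872. Differences were balanced in sign, with 4741 positive and 4800 negative.

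**Figure D2:**
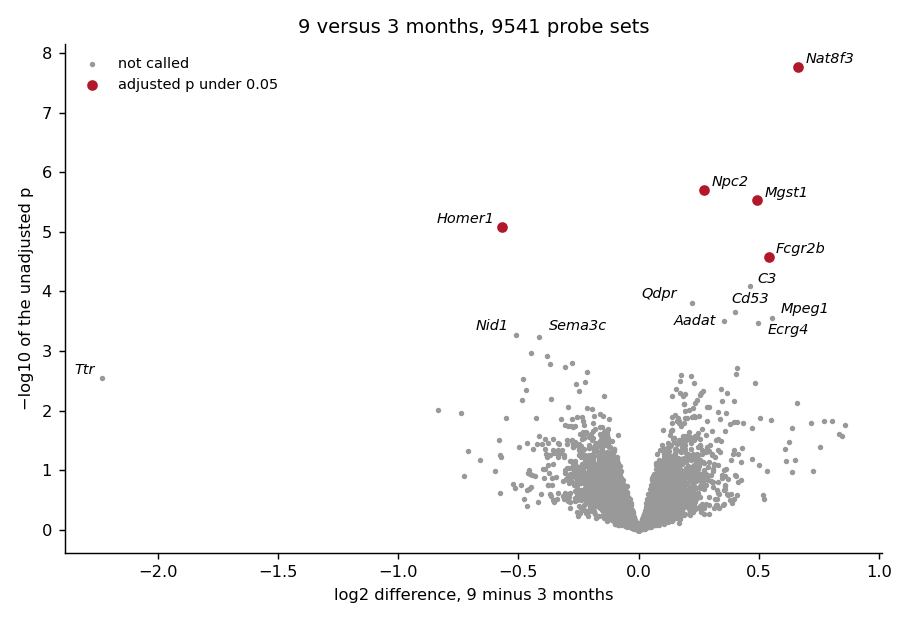
Each point is a probe set; the x axis is the log2 difference (9 minus 3 months) and the y axis is −log10 of the unadjusted p of limma. The 5 called probe sets are red: 4 lie to the right, between 0.27 and 0.66, and Homer1 lies to the left at −0.57. Ttr stands alone at −2.23 without being called.

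Nat8f3, a member of the N-acetyltransferase 8 family of endoplasmic reticulum acetyltransferases, had the smallest p of all probe sets. Its signal had a lowest value of 357, a median of 438.5 and a highest of 519 at 9 months, against 184, 294 and 373 at 3 months. Of the 9 arrays of 9 months, 7 were above every array of 3 months, and all 9 were above the 3-month mean. The log2 difference was 0.66 ± 0.10 (SE, n = 9 each, limma adjusted p = 0.000164), a 1.58-fold rise. It was 0.71 without the arrays of high Ttr signal (adjusted p = 0.00173). Members of this gene family are close copies of each other, and whether the probe set also reads its relatives was not tested.

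Npc2, the soluble cholesterol-binding protein of the lysosome whose loss causes Niemann-Pick type C disease, rose by less but with a narrow spread. Its signal ran from 2012 through a median of 2203 to 2719 at 9 months, against 1689, 1880 and 2041 at 3 months. Of the 9 arrays of 9 months, 8 exceeded all those of 3 months. The log2 difference was 0.27 ± 0.05 (SE, n = 9 each, limma adjusted p = 0.00941), or 1.21-fold. The difference was 0.29 without the arrays of high Ttr signal, with an adjusted p of 0.0899.

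Mgst1, the microsomal glutathione S-transferase that conjugates electrophiles and reduces lipid peroxides, had signals of 364, 411 and 470 (lowest, median and highest) at 9 months and of 226.5, 291 and 372 at 3 months. The groups overlapped by 1 array, since 8 of 9 arrays of 9 months lay above the 3-month maximum. The log2 difference was 0.49 ± 0.09 (SE, n = 9 each, limma adjusted p = 0.00941). Within the younger group the 4 arrays of high Ttr signal read 226.5 to 291, against 264.5 to 372 on the other 5. Without the arrays of high Ttr signal the difference was 0.35 (adjusted p = 0.766), and leaving out 3-month replicate 6 alone gave an adjusted p of 0.0543.

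Fcgr2b, the inhibitory Fc receptor through which immunoglobulin G restrains microglia, macrophages and B cells, was dim on these arrays. It had signals of 117, 132 and 166 (lowest, median and highest) at 9 months, against 67.1, 101 and 111 at 3 months. The groups did not overlap. The log2 difference was 0.54 ± 0.12 (SE, n = 9 each, limma adjusted p = 0.0497), and the adjusted p was above 0.05 in 13 of the 18 fits that left out a single array, reaching 0.232. Without the arrays of high Ttr signal the difference was 0.65 (adjusted p = 0.0899).

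Homer1 encodes a scaffold of the postsynaptic density that ties group I metabotropic glutamate receptors to calcium stores and to Shank; neuronal activity also induces a short form that lacks the coiled coil and uncouples these links. The called probe set had signals of 593, 710 and 767 (lowest, median and highest) at 9 months, against 811, 1003 and 1321 at 3 months. No array of 9 months reached the lowest of 3 months, and the spread was narrower at 9 months (SD 61) than at 3 months (SD 175). The log2 difference was −0.57 ± 0.11 (SE, n = 9 each, limma adjusted p = 0.0195). Without the arrays of high Ttr signal it was −0.53 (adjusted p = 0.366), and leaving out any of 5 single arrays (9-month replicates 6 and 9, 3-month replicates 5, 6 and 7) ended the call, with an adjusted p of 0.08 at most.

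The other 4 probe sets of Homer1 did not pass. The brightest of them averaged 1788 at 9 months and 1937 at 3 months (log2 difference −0.11). Of the others, the one averaging 728 at 9 months and 805 at 3 months differed by −0.15, and the one averaging 225 and 262 differed by −0.22. The dimmest, at 154 and 217.5, was the most variable and differed by −0.50 (SE 0.24). All 5 differences were thus negative but of unequal size; whether sizes differ was not tested, and the files do not say which Homer1 form each probe set reads. A fit with 1 probe set per gene takes the brightest and does not hold the called one.

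**Figure D3:**
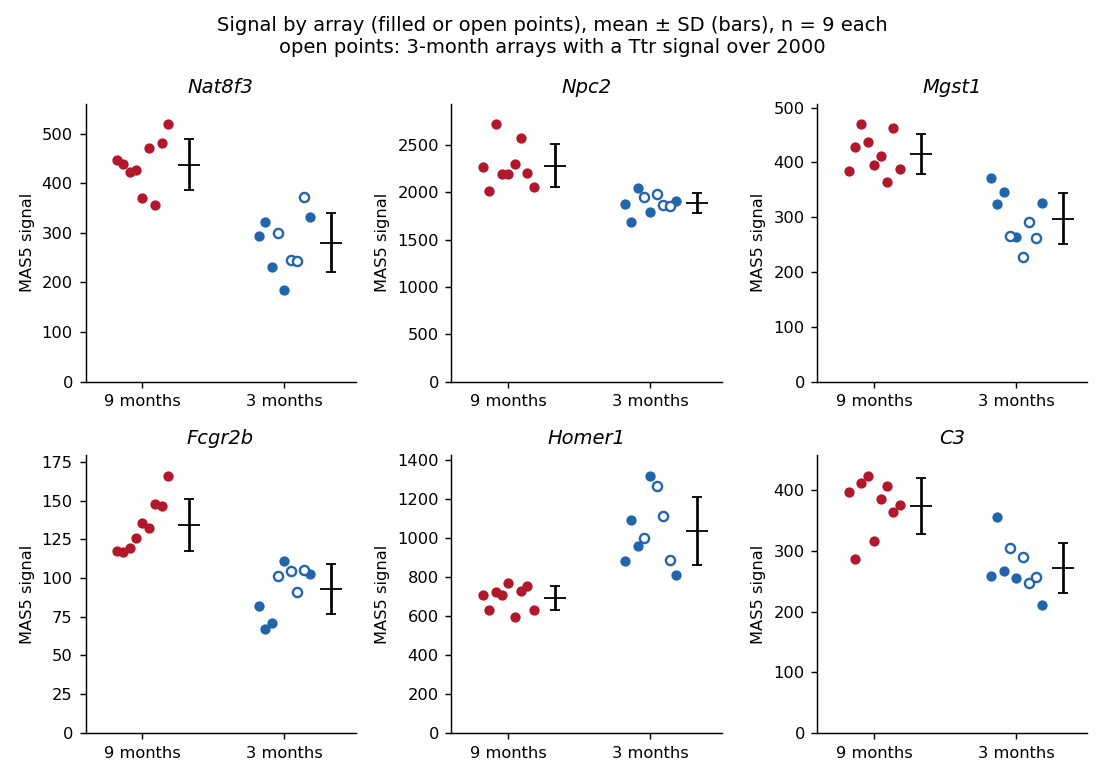
MAS5 signal on each array (points) with mean ± SD (bars) at 9 months (red, left) and 3 months (blue, right), n = 9 each, for the 5 called probe sets and C3, which did not pass; open points are 3-month arrays with a Ttr signal over 2000. Fcgr2b and Homer1 do not overlap between the ages, and in Mgst1 the open points lie low within the 3-month group.

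Complete separation of the groups was as rare as a call. It was found for 2 probe sets with higher signals at 9 months (0.021% of those tested) and for 1 with lower signals (0.0105%), which was the called one of Homer1. The second of the higher ones, named here after its values were seen, was Fcer1g, the signalling chain shared by activating Fc receptors. Fcer1g read 850 to 941 at 9 months and 683 to 819 at 3 months. Its log2 difference of 0.23 ± 0.08 (SE) did not pass (limma adjusted p = 0.9997).

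The 6 probe sets next in order on the higher side did not pass, and are given as values. C3, the central complement protein, had a log2 difference of 0.47 ± 0.11 (SE, n = 9 each, limma adjusted p = 0.13), with means of 374 at 9 months and 272 at 3 months; all 9 arrays of 9 months exceeded the 3-month mean. Qdpr, which recycles the tetrahydrobiopterin cofactor of monoamine synthesis and is rich in oligodendrocytes, differed by 0.22 (adjusted p = 0.217). Cd53, a tetraspanin of leukocytes and microglia, differed by 0.40 (adjusted p = 0.262).

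Mpeg1, the pore-forming perforin-2 of macrophages, was read by 2 probe sets, which differed by 0.55 (adjusted p = 0.294) and 0.21. The first of them was dim and reached a signal of 100 on 7 arrays of 9 months and 3 of 3 months. The filter can thus favour a difference of its sign. Aadat, the aminotransferase that makes kynurenic acid, differed by 0.36, and Ecrg4, a secreted peptide precursor, by 0.50, both with an adjusted p of 0.294. In Ecrg4, 8 of the 9 arrays of 9 months, reading up to 123, were above the highest 3-month value of 79.5. With a signal of 100 on 3 arrays of 9 months and 0 of 3 months, it was followed because of the ages after 3 months, so the filter favoured a difference of this sign.

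On the lower side 9 probe sets beyond Homer1 were followed without passing. Nid1, the nidogen that links laminin to collagen in basement membranes, averaged 76.3 at 9 months and 109 at 3 months on one probe set (log2 difference −0.51, adjusted p = 0.429) and differed by −0.11 on the other. The first of these reached a signal of 100 on 0 arrays of 9 months, 7 of 3 months and 1 of 6 months, so it passed the filter only where it was high. Sema3c, a secreted guidance cue, averaged 237 at 9 months and 318 at 3 months (−0.42, adjusted p = 0.429). Myo16, an unconventional myosin of neurons, differed by −0.45 (adjusted p = 0.725). All 9 arrays of 9 months lay below the 3-month mean for each of these probe sets except the second of Nid1, where 6 did.

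Chn2, a Rac-inactivating chimaerin, differed by −0.38 and −0.14 on its 2 probe sets. Neurofascin (Nfasc), the adhesion protein of the node of Ranvier and the axon initial segment, differed by −0.28 on its brightest probe set but by 0.22 and 0.24 on the other 2. Lipoprotein lipase (Lpl) differed by −0.37, Rpa3, a subunit of the single-strand DNA-binding replication protein A, by −0.31, and Tmem141, a transmembrane protein, by −0.21. None had an adjusted p under 0.77.

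Gene lists were described by counts, since each member stands on its own test. Over all 8094 genes, each represented by its brightest probe set, 134 were higher (1.66%) and 115 lower (1.42%) at 9 months at an unadjusted p under 0.05, and the median log2 difference was 0.0007. Here and below, fewer cells of a type, less RNA per cell and another share of neighbouring tissue in the piece cannot be told apart.

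Microglial and macrophage genes were more often higher than lower at 9 months. Of 29 tested, 22 had a positive and 7 a negative difference, with a median of 0.08. On the higher side 7 reached an unadjusted p under 0.05, on the lower side 0, and Fcgr2b alone passed the adjusted test. The 7 were Fcgr2b, Cd53, Cd83, Fcer1g, the purinergic receptor P2ry12 (0.24, and 0.07 on a second probe set), the lysosomal membrane protein Laptm5 (0.23) and the complement subunit C1qb (0.23). Other defining markers were near equal: Cx3cr1, the fractalkine receptor, averaged 232 at 9 months and 235 at 3 months, and Tmem119 averaged 253 and 248. The summed signal of the list ran from 14042 to 15488 at 9 months and from 12868 to 14840 at 3 months. Without the arrays of high Ttr signal the median was 0.09, with 7 higher and 0 lower at the same threshold.

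Lysosomal genes, which serve the breakdown of taken-up and worn-out material, had a like count. Of 43, 35 had a positive difference and 8 a negative one, with a median of 0.06. At an unadjusted p under 0.05 there were 6, all higher: Npc2, the ribonuclease Rnaset2 (0.19), Laptm5, the sulfatase Arsa (0.15), the membrane protein Lamp2 (0.16, and 0.09 on a second probe set) and cathepsin Z (Ctsz, 0.28). Only Npc2 passed the adjusted test. The median was 0.07 without the arrays of high Ttr signal, again with 6 higher and 0 lower.

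In the complement list of 13 genes, 11 differences were positive. C3 and C1qb were higher and vitronectin (Vtn, −0.29), which blocks the terminal complement complex, was lower at an unadjusted p under 0.05, and the median was 0.03. MHC class II genes, which serve antigen presentation, had 5 positive and 4 negative differences among 9 and a median of 0.01. These differences ran from −0.15 to 0.64, with 0 higher and 0 lower at an unadjusted p under 0.05. The invariant chain Cd74, at the low end, averaged 167 at 9 months and 183.5 at 3 months (−0.15).

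Of 22 genes shared by most neurons, 14 had a positive difference and the median was 0.02; the neurofilament Nefl (0.17) and the vesicle protein Syn2 (0.16) were at an unadjusted p under 0.05. A second probe set of each was not (Nefl 0.05, Syn2 0.03). Of 12 CA1 pyramidal genes, 11 had a negative difference, with a median of −0.10 (−0.08 without the arrays of high Ttr signal). Pou3f1, a POU transcription factor of CA1, was the only member at an unadjusted p under 0.05 (−0.23, adjusted p = 0.9997), and Wfs1 differed by −0.14 and, on a second and dimmer probe set that is not counted in the list, by −0.27 (unadjusted p = 0.0187, adjusted p = 0.9997). All 7 dentate granule cell genes had positive differences, with a median of 0.24, and of 0.11 without the arrays of high Ttr signal. On the higher side 2 of the 7, the channel Trpc6 (0.38) and the syntaxin-binding Stxbp6 (0.25), reached an unadjusted p under 0.05, and 0 on the lower side. The summed signal of the 7 ran from 5458 to 8218 at 9 months and from 4386 to 8539 at 3 months; each group thus held arrays of low and high dentate signal. With the log2 signal of Prox1 as a covariate the list median was 0.09, and all 5 probe sets called at 9 versus 3 months were called. Prox1 is itself a member of the list and has no value in that fit. A lower median is thus partly built in and cannot show the share of dentate tissue.

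Immediate early and activity-regulated genes, which neurons switch on within minutes of firing, had 14 positive and 27 negative differences among 41, and a median of −0.07. Nr4a2 (−0.23) and Gadd45g (−0.28) were at an unadjusted p under 0.05, both lower; a second probe set of Nr4a2 (−0.10) was not. Fos averaged 182 at 9 months and 250 at 3 months (−0.31), Arc 744 and 819 (−0.08), and Egr1 2354 and 2485 (−0.07); none of these 3 passed. Gadd45g was dim, with a median signal of 89.8 at 9 months and 101.5 at 3 months, so the signal filter can favour its sign. Homer1 stands in the list by its brightest probe set (−0.11). The members named here are all lower, while differences in the list ran from −0.31 to 0.28. Without the arrays of high Ttr signal the list median was −0.11, with 1 higher and 4 lower at an unadjusted p under 0.05.

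Collagen and basement membrane genes had 29 negative differences of 41 and a median of −0.07, with Col3a1 (−0.33), Nid2 (−0.27) and Col4a5 (−0.24) lower and Col5a2 (0.26, and 0.16 on a second probe set that was not) higher at an unadjusted p under 0.05. Axon growth and adhesion genes had 25 negative of 42, with Sema3c, Nfasc and the guidance cue Slit3 (−0.18) lower and the axonal adhesion protein Cntn2 (0.25) higher. Their medians without the arrays of high Ttr signal were −0.08 and −0.05. Col3a1 was dim, with a median signal of 77.9 at 9 months and 107.5 at 3 months. Its means at 6, 12 and 23 months were 86.1, 81.1 and 89.7. The signal filter can thus favour a lower value of Col3a1 at 9 months.

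Choroid plexus and meningeal lists had different medians with and without the arrays of high Ttr signal. Choroid plexus genes had 13 negative differences of 16 and a median of −0.32, against 0.01 without the arrays of high Ttr signal. At an unadjusted p under 0.05, 1 was higher and 4 lower, and 1 higher and 1 lower without those arrays. Ecrg4, the member of smallest p, was the higher one (0.50, and 0.52 without those arrays). As given above, the signal filter favoured its sign. The folate receptor Folr1 differed by −0.74, and by −0.51 without those arrays. Folr1 was dim, with a median signal of 72.9 at 9 months and 103.3 at 3 months, so the filter can favour its sign. Its means at 6 and 12 months were 105.5 and 108.6. Meningeal and fibroblast genes had 14 negative differences of 19 and a median of −0.13, against −0.04. Igf2, a growth factor of both tissues, differed by −0.42, against −0.14 without those arrays.

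Myelin genes were split: Qdpr and Cntn2 were higher and Ugt8 (−0.25), which makes the myelin lipid galactosylceramide, and the tetraspanin Cd9 (−0.19) were lower at an unadjusted p under 0.05, and the median of 29 genes was 0.02. In the list of oxidative defence genes Mgst1 and Gstp1 (0.17), both glutathione transferases, were higher and no member of 40 was lower at that threshold. The astrocyte list had 0 of 25 genes at an unadjusted p under 0.05. Its filament protein Gfap averaged 6408 at 9 months and 6334 at 3 months.

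Of 29 further lists, those of pan-neuronal, astrocyte and MHC class II genes among them, 26 had a median within 0.05 of 0. The other 3 were ependyma and cilia (4 genes, all negative, median −0.09, and 0.08 without the arrays of high Ttr signal), interferon response (19 genes, 0.06) and GABA and glycine receptors (16 genes, 0.06). Mitochondrial respiratory chain genes (69, median 0.004), cytosolic ribosomal protein genes (39, median 0.02), glycolysis genes (23, median 0.01) and proteasome genes (33, median 0.002) had no member at an unadjusted p under 0.05 in either direction. Differences of the ribosomal genes were small but mostly of 1 sign, with 32 of 39 positive (82.05%), against 50.32% of all genes. Without the arrays of high Ttr signal their median was 0.007, with 0 higher and 1 lower at that threshold. Camk4, the calcium-dependent kinase that activates CREB in the nucleus, was the single member of 44 glutamate receptor and postsynaptic genes at that threshold (−0.48; 156 at 9 months, 225 at 3 months). Its second probe set averaged 139 at 9 months and 141 at 3 months (−0.04) and was not at that threshold.

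**Figure D4:**
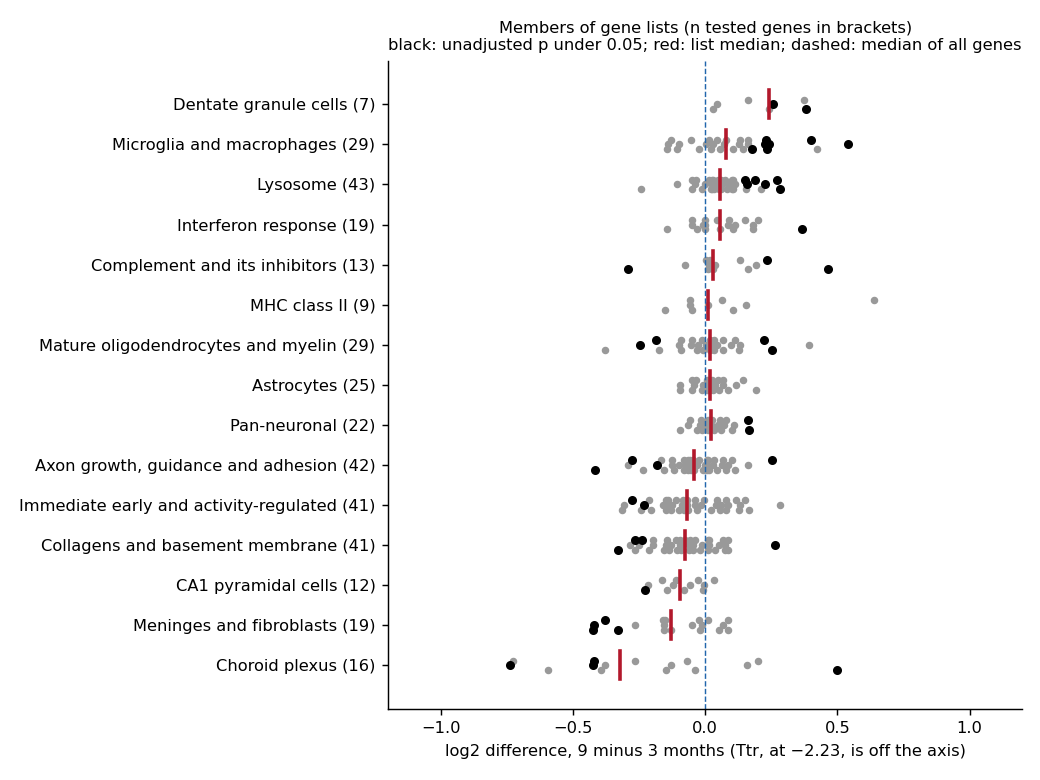
Each point is a gene, by its log2 difference (9 minus 3 months), in 15 of the lists; black points have an unadjusted p under 0.05, red bars are list medians and the dashed line is the median of all 8094 genes (0.0007). Microglial (0.08), lysosomal (0.06), interferon (0.06) and dentate (0.24) medians lie to the right, choroid plexus (−0.32) and meningeal (−0.13) medians to the left; Ttr is off the axis.

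The 5 called genes were also followed at the intermediate and later ages. These comparisons share animals with 9 versus 3 months, so their values are set side by side only. At 6 versus 3 months 1 probe set was called (0.0105%), and it was Nat8f3 (log2 difference 0.58, limma adjusted p = 0.00395). At 9 versus 6 months 0 were called by limma (0%), with 219 at an unadjusted p under 0.05. At 12 versus 9 months 0 were called (0%), with 380 at that threshold. At 23 versus 9 months 69 were called (0.723%), 61 of them higher at 23 months.

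Nat8f3 averaged 280, 412, 437, 473 and 535 at 3, 6, 9, 12 and 23 months. Its difference was 0.58 at 6 versus 3 months and 0.09 at 9 versus 6 months. Mgst1 had means of 298, 320, 416, 382 and 539, and differences of 0.11 and 0.38 in the same intervals. Npc2 averaged 1884, 2179, 2281, 2445 and 2978 over the 5 ages, and Fcgr2b 92.8, 113, 134, 142 and 229. At 23 versus 9 months Npc2 (0.39, adjusted p = 7.81e-08), Fcgr2b (0.75, 5.46e-06) and Mgst1 (0.36, 0.0254) were called higher, and Nat8f3 was not (0.28, 0.162).

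The called probe set of Homer1 averaged 1038, 887, 694.5, 756 and 634 at 3, 6, 9, 12 and 23 months. It differed by −0.24 at 6 versus 3 months, by −0.33 at 9 versus 6 months and by −0.16 at 23 versus 9 months, none of which passed (limma adjusted p = 0.636 for the last). C3 averaged 272, 336, 374, 463 and 701, and it was called at 23 versus 9 months (0.88, adjusted p = 1.56e-08). Rpa3 averaged 199, 205, 161, 145 and 170.

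**Figure D5:**
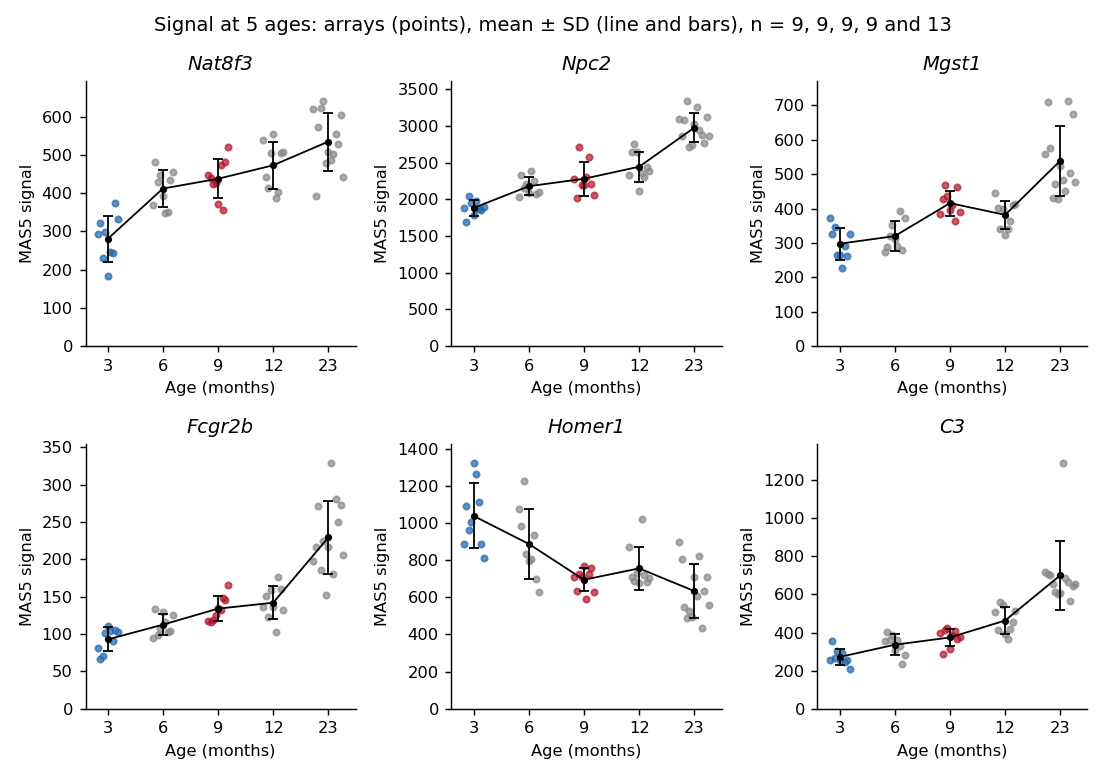
MAS5 signal on each array (points) with mean ± SD (line and bars) at 3 (blue), 6, 9 (red), 12 and 23 months, n = 9, 9, 9, 9 and 13. Nat8f3 is already at 412 by 6 months, Mgst1 is at 320 at 6 months and 416 at 9 months, and Homer1 is lowest at 23 months (634).

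The comparison of 12 with 6 months shares no animal with 9 versus 3 months. It called 1 probe set (0.0105%), Rpa3, which was lower at 12 months (log2 difference −0.49, limma adjusted p = 0.0305). None of the 5 genes called at 9 versus 3 months passed there, but each had the same sign: Nat8f3 0.20, Fcgr2b 0.33, Mgst1 0.26, Npc2 0.16 and Homer1 −0.22. Of the 155 probe sets higher at 9 than at 3 months at an unadjusted p under 0.05, 114 (73.5%) had a positive difference at 12 versus 6 months, against 49% of all probe sets. Of the 136 lower ones, 89 (65.4%) had a negative difference, against 51% of all. These shares were not tested.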

How the data were processed

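Total RNA of 49 rat CA1 samples was measured on single-channel Affymetrix RAE 230A arrays, 1 per animal. The deposited values are intensities on a linear scale, made by the authors with MAS5 (per the submitters' processing notes; version not given in the sources used here) with a scaling target of 500 that took in every probe set (per the design text). Gene symbols came from the platform annotation and were updated by Entrez ID through RefSeq GRCr8 (12748 of 12783 matched); 312 probe sets with several symbols, 2822 unlisted ones and 57 controls were left out, and 0 per-sample columns were unused. The signal filter stands in for the authors' presence calls. Signals under 16 were set to 16 (0.0539% of tested values) and log2 values were tested without further scaling.

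Differences were tested with limma 3.58.1 in R 4.3.3 (lmFit, eBayes with a variance trend). The 5 ages each had a mean in one model of the 49 arrays, and the two-sided p was adjusted by Benjamini-Hochberg over 9541 probe sets. This step was first tested on simulated data, drawn with independent noise for each probe set and without arrays of high Ttr signal. The simulation thus does not cover such features of the real arrays. Array dates are not used here, so batches were not tested. None of the 1176 pairs of arrays looked duplicated, the lowest SD of a log2 difference being 0.252.

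Named genes followed a rule: in each direction the largest called differences, filled to 10 with the smallest p; in each of 41 lists at most 3 members of smallest p; and Ttr, Prox1 and Hbb. Further members are named as examples chosen after their values were seen. The members and lists were chosen with earlier results of these data known. Ratios of control probes were compared by exact permutation (SciPy, Python). Alternatives covered the floor, filter, normalization, probe sets per gene, variance model, array weights, arrays in the fit, the replicate number and single arrays; those on Ttr and Prox1 were added after seeing the data.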

Additional observations from a re-analysis of the deposited data

Results flagged for a closer look

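Among 59 named probe sets, each examined in both age groups of 9 arrays, 8 of 118 groups (6.78%) held an array far from the rest, by Dixon's test of the gap to the nearest value on the log2 scale. Chance flags about 1 group in 20, so the number of such groups is close to that share.

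Of the 8, 3 fell on 3-month replicate 8, the array with the highest Ttr signal, and all were genes of the choroid plexus or meninges. There Folr1 read 308 against at most 158 on the other 3-month arrays, Slc13a4, a sulfate transporter, read 232 against at most 144, and Ogn, the fibroblast proteoglycan osteoglycin, read 229 against at most 129. Haemoglobin beta (Hbb) read 210 on 3-month replicate 4, which also had high Ttr, against at most 50.5 on the other 3-month arrays. It also read 138 and 147 on 9-month replicates 1 and 2, whose Ttr signals were 341 and 311.

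The other 4 were single values. Qdpr read 5587 on 3-month replicate 2, above the rest at 4280 to 4860. Mertk, a phagocytic receptor kinase, read 90.7 on 3-month replicate 1, below the rest at 208.5 to 272. On 9-month replicate 3, Rpa3 read 113 against 151 to 182, and Tubb2b, a neuronal tubulin, read 2287 against 2900 to 3389. Rpa3 differed by −0.31 with that array and by −0.24 without it, and was called in neither fit.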

How the results depend on the processing

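The count of 5 called probe sets (4 higher, 1 lower) moved as follows. It was 3, with 0 lower, without a signal filter, with 1 probe set per gene and with the unmoderated analysis of variance contrast. It was 9 (7 higher, 2 lower) with array weights, and the 18 arrays alone gave 3 (2 higher). Flooring signals at 64 gave 2 lower, the second being Nid1. Deviations of same-numbered arrays of both ages correlated from −0.0959 to 0.266, with a median of 0.0514, against −0.00135 for other numbers. Of the 9 same-number correlations, 4 were over 0.1, and 4 of the 9 arrays of 9 months were closest to their own number. Whether the replicate numbers mark a shared batch was not tested. A replicate block gave 3 calls (2 higher) on 18 arrays and 8 (7 higher) on 36. Leaving out single arrays gave 2 to 7 calls (2 to 6 higher, 0 to 1 lower), the lowest without 3-month replicate 6; without 9-month replicates 6 or 9 or 3-month replicate 7 there were 3. Without the 5 arrays of high Ttr signal, chosen after seeing the data, 1 remained higher (Nat8f3) and 0 lower. With log2 Ttr as a covariate all 5 were called and no other; with log2 Prox1, 7 were (6 higher, 1 lower), the 5 with C3 and Qdpr. Nat8f3 was called in all 18 fits that left out an array and all 18 others. In the same 2 sets of fits, Npc2 was called in 18 of 18 and 16 of 18, and Mgst1 in 17 of 18 and 16 of 18. Homer1 was called in 13 of 18 and 14 of 17, and Fcgr2b in 5 of 18 and 10 of 17.

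Only the 5 called probe sets could lose a call, and the fits that called each are given above. Of 777 values of named genes under alternatives 716 kept their sign and side of the threshold, 33 lost and 13 gained a call, and 15 changed sign. Of these, 14 were Hbb, which is near the floor: 0.0658 with signals floored at 64, 0.65 without the 5 arrays, 0.0754 and 0.20 with Ttr and Prox1 as covariates, and −0.31 to 0.34 over single arrays left out. The other was Ttr, at 0.0016 without the 5 arrays. The control probe differences, below 0.05 in size throughout, became 0.0075 for GAPDH, −0.048 for beta-actin and 0.049 for hexokinase without them. The causes were not tested. Of 287 list medians under alternatives 25 had another sign, 9 of them without the 5 arrays: choroid plexus (0.01, against −0.32 with them) and ependyma (0.08 against −0.09) moved most among these. Meningeal (−0.04 against −0.13) and dentate (0.11 against 0.24) medians came closer to 0. Dim genes such as Fcgr2b and Nid1 are limited by signal over background.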
